A study of Mus musculus with 6 samples.

Results

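Solute carriers are membrane proteins that move amino acids, sugars, ions, vitamins, nucleosides and metabolites across the cell surface and the membranes of organelles, and their genes share the symbol Slc followed by a family number, the letter a and a member number. The genes described here are the solute carrier genes that were expressed in dendritic cells (DCs) sorted from the mouse thymus. They were chosen by their summed counts: a symbol of this form with at least 100 raw read counts over the 6 libraries, without Slc15a4, Slc2a1 and Slc40a1, which were left out by name. Of 341 symbols of this form among 23420 gene symbols, 70 were members, 207 had 1 to 99 counts and 61 had none. Among all gene symbols, 5202 reached the same minimum. The members just inside the minimum were Slc25a29 with 100 counts, Slc48a1 with 101, Slc4a2 with 103 and Slc7a6os with 105, and the genes just outside were Slc16a3 and Slc35a3 with 97 each, Slc36a1 with 96 and Slc25a45 with 94. The products of 2 members, Slc7a6os and Slc9a3r1, a scaffold protein that binds ion exchangers, carry nothing across membranes, which leaves 68 carriers in 11 substrate classes.

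The study sorted 3 groups of cells from the thymus of Wild Type mice, with 2 libraries in each group. The YG+ pDC group held plasmacytoid DCs (pDCs, gated as CD11c low and B220+) that carried yellow-green microspheres, from mice whose subcutaneous MC38 tumours, a mouse colon carcinoma line, had grown for 12 days before the microspheres were injected into them and 2 days more before the sort. The PBS pDC group held pDCs by the same CD11c and B220 gate, and the PBS Sirpa+ DC group held CD11c high Sirpa+ DCs, a conventional subset, both from PBS-treated mice, labelled as 2 weeks of PBS. The labels do not say whether the PBS mice bore tumours. Every library was made from 5 ng of total RNA, and the labels give all of them 1 batch. Injected material and microsphere gate separate YG+ pDCs from PBS pDCs, as does the tumour if the PBS mice had none, and these cannot be told apart. The age and sex of the mice are not given in the labels used here, and neither is it said that libraries of 1 group are from different mice. The p-values therefore speak only of the spread between the libraries at hand, which may be technical.

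Gene counts totalled 177844 to 713966 per library, and the members took 0.741% to 0.927% of them. Uniquely placed reads fell in genes at a share of 0.842% in PBS pDC replicate 1 and at up to 3.36% elsewhere. Levels are given as CPM, which scales counts to the library. A count of 0 allows a level of up to 4.20 to 16.9 CPM by library, taken at 3 counts, and this limit covers counting error only. The limit is scaled to the gene counts of the library. The printed levels use the scaled library sizes of the test, on which 3 counts in PBS pDC replicate 1 are 19.1 CPM. Of the 70 members, 69 had counts in every library, and Slc4a8 had 0 in PBS pDC replicate 1. Marker genes were set against the gates. The summed level of 12 pDC markers was 5480 to 7904 CPM in the pDC libraries and 1062 to 1266 CPM in Sirpa+ DCs. Conventional DC and cDC2 markers (12 genes) summed to 1027 to 1483 CPM in the pDC libraries and to 1913 and 2717 CPM in Sirpa+ DCs. Markers of cDC1, the other conventional subset (8 genes), summed to 364 and 602 CPM in PBS pDCs, with Batf3 at 0 there. They summed to 757 and 741 CPM in YG+ pDCs and to 1959 and 1876 CPM in Sirpa+ DCs. All 8 were found in both Sirpa+ DC libraries. Mature DC markers (8 genes) summed to 778 and 671 CPM in PBS pDCs, 1913 and 1485 CPM in YG+ pDCs and 6567 and 5281 CPM in Sirpa+ DCs. The 11 macrophage markers found in the files summed to 944 and 666 CPM in PBS pDCs, where Mertk and Fcgr1 were at 0, to 4555 and 1743 CPM in YG+ pDCs and to 6212 and 10198 CPM in Sirpa+ DCs. B cell markers (10 genes) were at 986 to 1182 CPM in the pDC libraries against 76.2 and 35.9 CPM in Sirpa+ DCs, where Ms4a1, Pax5 and Bank1 were at 0. T cell markers (11 genes) stood at 285 to 479 CPM against 42.3 and 31.9 CPM. The part of these other cell types in the differences below was not tested. In sorted pools, fewer cells of a type and less RNA per cell cannot be told apart.

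In immune cells, carriers set how much cystine, glutamine, glucose or choline a cell can draw from its surroundings, and carriers of endosomes and lysosomes move digestion products and protons in compartments where antigen is processed. Some carriers work only in pairs: the heavy chain encoded by Slc3a2, also known as CD98, brings light chains such as those of Slc7a5, Slc7a6 and Slc7a11 to the cell surface. Zinc carriers of family 39 bring zinc into the cytosol and those of family 30 take it out, into vesicles or out of the cell.

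Members were ranked by level as CPM per kilobase of exon. By this measure the highest members were Slc24a1, Slc24a5, Slc3a2, Slc25a5, Slc10a1, Slc18a2, Slc25a4, Slc39a7, Slc29a3 and Slc7a5, in that order, and 8 of these 10 stayed among the top 10 with the length of the longest transcript. Slc3a2 stood at a mean of 135 CPM per kilobase over the 6 libraries, within a range of 125 to 143. Without division by length, its levels were 440 and 465 CPM in PBS pDCs, 504 and 497 CPM in YG+ pDCs and 457 and 498 CPM in Sirpa+ DCs. The coefficient of variation of Slc3a2 over the libraries was 5.57%, the smallest of all members, whose median was 37.8%. Slc38a2, a sodium-coupled carrier of glutamine and other neutral amino acids, was next at 10.3%, with levels of 185 to 245 CPM, and Slc7a5, the leucine carrier that pairs with Slc3a2, had 18.7%. The ADP/ATP exchangers Slc25a5 and Slc25a4 stood at 88.2 and 51.2 CPM per kilobase; Slc25a5 has close copies in the genome, so its counts are uncertain. Slc39a7, which releases zinc from the endoplasmic reticulum, shares 80.7% of its exon length with an annotated gene of the same strand, and its value of 48.6 CPM per kilobase is uncertain for that reason. The lysosomal nucleoside carrier Slc29a3 had 42.1 CPM per kilobase, between 35.0 and 62.9 in single libraries.

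The other levels at the top of this order moved more between libraries of a group. Slc24a1, an exchanger of sodium for calcium and potassium known from rod photoreceptors, ranged from 71.7 to 510 CPM per kilobase. Slc24a5, its relative in pigment cell organelles, ranged from 73.5 to 353, Slc10a1, the bile acid carrier of liver cells, from 22.7 to 206, and Slc18a2, which loads monoamines into vesicles, from 22.1 to 128 CPM per kilobase. In 3 of these 4 genes, all but Slc24a1, the highest value came from PBS pDC replicate 1, the library with the fewest gene counts. The plot of each member by library shows the same for other genes.

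**Figure D1:**
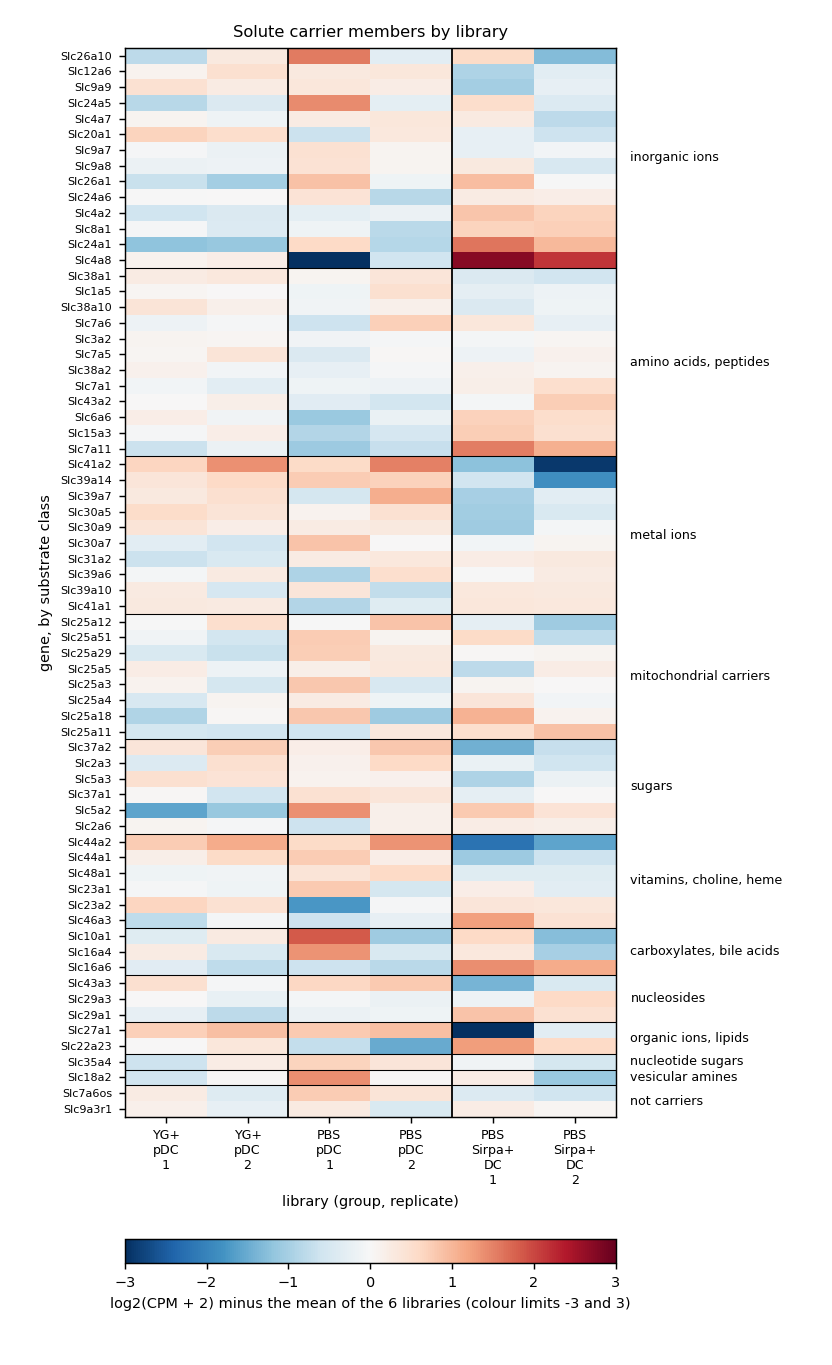
Each of the 68 rows is a member of the set, grouped by substrate class, and each column 1 of the 6 libraries; colour gives log2(CPM + 2) minus the gene's mean over the libraries. Slc44a2 and Slc41a2 are low in both Sirpa+ DC libraries, Slc4a8, Slc7a11 and Slc16a6 are high in both, and PBS pDC replicate 1 stands apart from its partner in genes such as Slc10a1 and Slc24a5.

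Over the members, log2 CPM correlated at 0.918 between the YG+ pDC libraries, 0.824 between the Sirpa+ DC libraries and 0.692 between the PBS pDC libraries, as a description over 70 genes that are not independent. PBS pDC replicate 2 correlated at 0.849 and 0.862 with the YG+ pDC libraries, more closely than with its own partner. Between the PBS pDC libraries, 13 members were more than 2-fold higher in replicate 1 and 5 were more than 2-fold lower there, with a median ratio of 0.965. The largest such ratio was that of Slc10a1, at 7.83, with 453 CPM in replicate 1 and 57.8 CPM in replicate 2. Slc25a18, a mitochondrial glutamate carrier, followed at 3.82, and Slc26a10 at 3.74. Results that rest on the PBS pDC mean are given below with and without each of these libraries where the call depends on them.

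The raw counts of some members did not follow library size. Slc24a5 had 122 and 127 counts in YG+ pDCs, 129 and 108 in PBS pDCs and 105 and 115 in Sirpa+ DCs, although the gene totals ran from 177844 to 713966. Its coefficient of variation was 68.9% in CPM and 10.6% as counts per uniquely placed read. Slc26a1, a sulfate carrier, had 28 to 51 counts per library, with 54.3% in CPM and 21.8% per uniquely placed read. Slc18a2 had 58 to 143 counts, with 66.7% and 33.9%. In all, 17 of 70 members varied less per uniquely placed read than in CPM, against a median over the members of 37.8% in CPM and 55.1% per uniquely placed read. By contrast, the counts of Slc3a2, 359 and 278 in YG+ pDCs, 69 and 201 in PBS pDCs and 108 and 250 in Sirpa+ DCs, came in the same order as the gene totals. Exons of Myef2, on the opposite strand, lie over 39.5% of the exon length of Slc24a5. The sources used here do not give the strand setting of the counts. Counts of Tsix, which lies on the opposite strand to Xist, were 2.70 to 20.5 times those of Xist. The ratio was highest in PBS pDC replicate 1. The part of the strand setting in these values, and in the levels of any other member, was not tested.

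**Figure D2:**
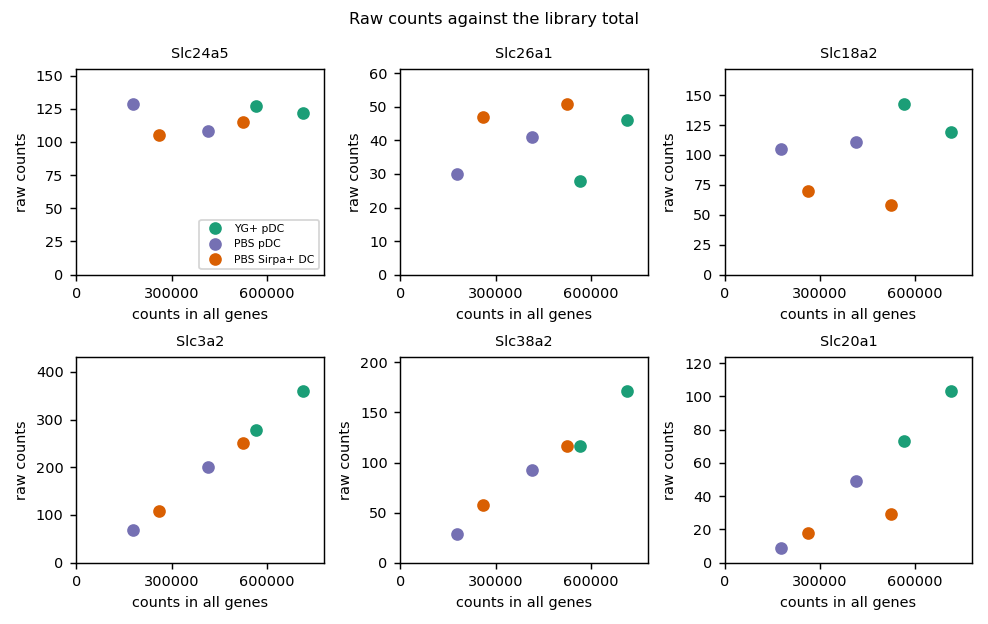
Raw counts of 6 members (vertical axes) against the counts in all genes of the same library (horizontal axes), 1 point per library, coloured by group. Slc24a5, Slc26a1 and Slc18a2 (upper row) do not follow the library total, while Slc3a2 and Slc38a2 (lower row) lie near a line through the origin and Slc20a1 is high in YG+ pDCs.

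Opposite exons covered some exon sequence of 24 members, and in these the CPM of PBS pDC replicate 1 was a median of 1.11 times that of its partner, against 0.946 times in the other 46 members. Over 20% of exon length lay under an opposite exon in 4 members, Slc24a5, Slc15a3 (28.1%, Tmem132a), Slc16a6 (22.5%, Amz2 and Arsg) and Slc5a2 (20.6%, BC017158), with a median of 1.76 times. Their single ratios were 3.29, 0.77, 1.15 and 2.38, in that order. Slc10a1, which had the largest ratio of all members at 7.83, has no exon under an opposite exon. The part of opposite exons in these ratios was not tested.

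The first comparison, PBS pDCs against PBS Sirpa+ DCs, asks which carriers differ between the subsets. The choline carrier gene Slc44a2, the magnesium carrier gene Slc41a2 and the zinc and iron importer gene Slc39a14 were among the members higher in pDCs. The bicarbonate carrier gene Slc4a8, the cystine importer gene Slc7a11, the monocarboxylate family gene Slc16a6 and Slc22a23, an organic ion carrier family gene of unknown substrate, were lower in pDCs. In all, 4 members were higher and 4 lower. These 8, called at a Benjamini-Hochberg adjusted p under 0.05 over 8141 genes by edgeR's quasi-likelihood test, were 11.4% of the members, the same share as the 11.4% of all genes tested (4.54% higher and 6.89% lower). In 24 members both pDC libraries lay above both Sirpa+ DC libraries and in 18 both lay below, against 22.9% and 24.2% of all genes tested. The median log2 fold change of the members was 0.36, beside 0.08 over all genes. Without PBS pDC replicate 1 the median was 0.05 and without Sirpa+ DC replicate 2 it was 0.12. Calls were 2 higher without either YG+ pDC replicate, with 4 lower without replicate 1 and 3 without replicate 2. They were 7 higher and 6 lower without PBS pDC replicate 1, 5 and 5 without PBS pDC replicate 2, and 1 and 1 without either Sirpa+ DC replicate.

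**Figure D3:**
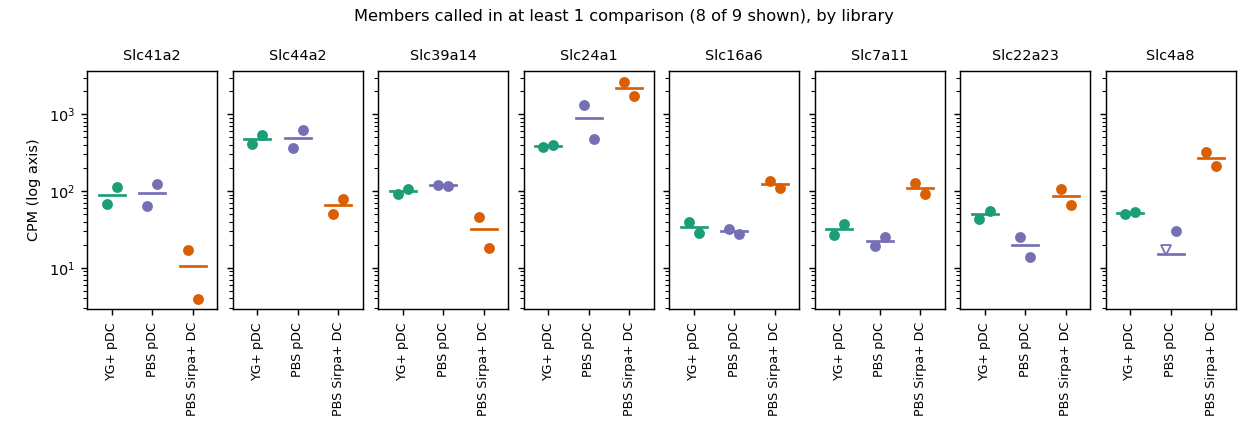
CPM (log axis) of 8 of the 9 members called in at least 1 comparison, 1 point per library, with the group mean as a bar; the open triangle marks a count of 0, drawn at the floor of that library. Slc41a2, Slc44a2 and Slc39a14 sit lower in both Sirpa+ DC libraries than in all 4 pDC libraries, and Slc16a6, Slc7a11, Slc22a23 and Slc4a8 sit higher.

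Slc44a2 (chromosome 9, 21320698 to 21355028, GRCm38) encodes a choline carrier of the plasma membrane and mitochondria. It was at 364 and 622 CPM in PBS pDCs, 414 and 530 CPM in YG+ pDCs against 50.8 and 79.7 CPM in Sirpa+ DCs. All 4 pDC libraries were above both Sirpa+ DC libraries. The log2 fold change of PBS pDCs over Sirpa+ DCs was 2.89 ± 0.49 (SE; adjusted p = 0.00441, edgeR), and it lost the call without Sirpa+ DC replicate 1 (2.62, adjusted p = 0.0613) or replicate 2 (3.31, adjusted p = 0.0525). Its relative Slc44a1, also a choline carrier, had 128 and 85.6 CPM in PBS pDCs and 33.9 and 47.8 CPM in Sirpa+ DCs, which did not pass the test (adjusted p = 0.113, edgeR). The other vitamin and cofactor carriers were not called: the vitamin C carriers Slc23a1 and Slc23a2, the lysosomal carrier Slc46a3 and the heme carrier Slc48a1 had log2 fold changes of 0.21, -0.86, -1.27 and 0.92.

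Of the 10 metal ion carriers, 2 were higher in pDCs and none was lower, beside 4.54% and 6.89% of all genes tested; 1 of these 2 calls, Slc39a14, was lost in 6 of 16 alternative fits. Slc41a2 (chromosome 10, 83230848 to 83337882) encodes a magnesium carrier. It had 63.8 and 125 CPM in PBS pDCs, 67.4 and 113 CPM in YG+ pDCs against 16.9 and 3.99 CPM in Sirpa+ DCs, the last 2 values from 4 and 2 counts. The groups did not overlap, and the log2 fold change was 3.48 ± 0.72 (adjusted p = 0.0113, edgeR); without Sirpa+ DC replicate 2 it was 2.56 (adjusted p = 0.146), and without replicate 1 it was 4.53 (adjusted p = 0.0351). The magnesium carrier Slc41a1 had a log2 fold change of -0.89, with 31.9 and 46.3 CPM in PBS pDCs and 76.2 and 75.8 CPM in Sirpa+ DCs (adjusted p = 0.280, edgeR). Slc39a14 (chromosome 14, 70303469 to 70351425), which imports zinc, manganese and iron, had 121 and 116 CPM in PBS pDCs, 91.3 and 107 CPM in YG+ pDCs against 46.5 and 17.9 CPM in Sirpa+ DCs. Here too every pDC library was above both Sirpa+ DC libraries. The log2 fold change of 1.99 ± 0.53 (adjusted p = 0.0332, edgeR) missed the threshold without any 1 of the YG+ pDC or Sirpa+ DC libraries (adjusted p = 0.0528 to 0.271), with only the 4 libraries compared (0.0817) and by DESeq2 (0.0748). Among the zinc carriers that were not called, Slc30a5 and Slc39a7 had log2 fold changes of 1.02 and 1.15, and the copper carrier Slc31a2 had 0.02.

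Slc4a8 (chromosome 15, 100761747 to 100823968) encodes an exchanger that takes up sodium and bicarbonate for chloride, and it had the largest fold of the members lower in pDCs. It had 0 and 30.1 CPM in PBS pDCs, from 0 and 13 counts, 50.6 and 53.7 CPM in YG+ pDCs against 322 and 211 CPM in Sirpa+ DCs. Both Sirpa+ DC libraries were above all pDC libraries. The log2 fold change of PBS pDCs over Sirpa+ DCs was -3.71 ± 0.68 (adjusted p = 0.00635, edgeR), -3.10 without the PBS pDC library that had no count. Without the other PBS pDC library the group rests on a count of 0, and the fitted value of -9.84 is then no measure of size. This was the only called member that passed in all 16 alternative fits of the comparison, where the largest adjusted p was 0.0474. Its class held 15 carriers of sodium, protons, chloride, bicarbonate, phosphate and sulfate, of which no other was called. Slc24a1 had 1320 and 477 CPM in PBS pDCs, 374 and 395 CPM in YG+ pDCs against 2657 and 1713 CPM in Sirpa+ DCs, from 207, 206, 266, 221, 628 and 859 counts in that order, with a log2 fold change of -1.29 ± 0.53 (adjusted p = 0.155, edgeR). The sodium-calcium exchanger gene Slc8a1 had 115 and 71.7 CPM in PBS pDCs and 203 and 209 CPM in Sirpa+ DCs, and the anion exchanger gene Slc4a2 31.9 and 34.7 against 71.9 and 63.8 CPM; neither passed (adjusted p = 0.114 and 0.269, edgeR). The sodium-proton exchangers of the Golgi and endosomes, Slc9a7, Slc9a8 and Slc9a9, had log2 fold changes of 0.34 to 0.82, and none passed.

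Slc7a11 (chromosome 3, 49892526 to 50443614) encodes the light chain of the exchanger that imports cystine for glutamate and so feeds the synthesis of glutathione. Its levels were 19.1 and 25.5 CPM in PBS pDCs, from 3 and 11 counts. In YG+ pDCs they were 26.7 and 37.6 CPM, against 127 and 91.7 CPM in Sirpa+ DCs. Both Sirpa+ DC libraries were above all pDC libraries. The log2 fold change was -2.20 ± 0.53 (adjusted p = 0.0218, edgeR), and it missed the threshold without Sirpa+ DC replicate 1 (-1.98, adjusted p = 0.116) or replicate 2 (-2.40, adjusted p = 0.0775) and by DESeq2 (-2.27, adjusted p = 0.0658). Its heavy chain gene Slc3a2 had a log2 fold change of -0.08 ± 0.39, and the other light chain members Slc7a5 and Slc7a6 had -0.15 and 0.29. Slc7a8, a light chain gene below the count minimum with 91 counts, had 0 and 4.63 CPM in PBS pDCs, from 0 and 2 counts. It had 30.9 and 21.5 CPM in YG+ pDCs and 55.0 and 83.7 CPM in Sirpa+ DCs. The light chain gene Slc7a7, with 81 counts, had 63.8 and 23.1 CPM in PBS pDCs and 42.3 and 37.9 CPM in Sirpa+ DCs. Among the 12 amino acid and peptide carriers no other was called. The glutamine carriers Slc38a1 and Slc1a5 had log2 fold changes of 0.74 and 0.46, and the taurine carrier Slc6a6 had -1.16. Slc15a3, a carrier of histidine and small peptides in lysosomes, had 89.3 and 116 CPM in PBS pDCs and 279 and 231 CPM in Sirpa+ DCs. Its log2 fold change of -1.28 ± 0.42 did not pass (adjusted p = 0.0728, edgeR). Tmem132a, whose exons lie over part of Slc15a3 on the other strand, had 427 and 208 CPM in PBS pDCs and 1743 and 865 CPM in Sirpa+ DCs.

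The sequences before the start of these genes are shown because they are the 4 members with the smallest p in this comparison, Slc44a2, Slc4a8, Slc41a2 and Slc7a11. Each run holds the 250 bases before the gene start on the gene's strand, from RefSeq on GRCm38.p6, which had entries for 51 of 70 members (71 windows). Capitals mark matches, on either strand, to 5 motifs that were searched: TGATGCAA (ATF4, amino acid response), TGACNNNGC (NRF2, antioxidant response), CAGGTG (E proteins such as the pDC factor encoded by Tcf4), GAGGAAGT (PU.1) and GTCACGTG (TFEB, of the lysosome program). No match of one motif overlapped a match of another in the runs shown. Slc44a2 has 2 annotated starts.
Slc7a11 (chr3:50443614-50443863, minus strand): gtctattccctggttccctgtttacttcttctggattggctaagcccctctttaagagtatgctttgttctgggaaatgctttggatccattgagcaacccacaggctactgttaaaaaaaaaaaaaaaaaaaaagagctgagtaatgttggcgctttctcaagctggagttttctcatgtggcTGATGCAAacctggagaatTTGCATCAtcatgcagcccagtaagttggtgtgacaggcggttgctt
Slc41a2 (chr10:83337818-83338067, minus strand): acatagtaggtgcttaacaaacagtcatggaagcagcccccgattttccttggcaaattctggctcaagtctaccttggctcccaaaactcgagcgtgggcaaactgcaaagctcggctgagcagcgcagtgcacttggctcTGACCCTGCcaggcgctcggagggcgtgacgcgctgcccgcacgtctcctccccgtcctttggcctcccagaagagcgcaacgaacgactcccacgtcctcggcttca
Slc4a8 (chr15:100761497-100761746, plus strand): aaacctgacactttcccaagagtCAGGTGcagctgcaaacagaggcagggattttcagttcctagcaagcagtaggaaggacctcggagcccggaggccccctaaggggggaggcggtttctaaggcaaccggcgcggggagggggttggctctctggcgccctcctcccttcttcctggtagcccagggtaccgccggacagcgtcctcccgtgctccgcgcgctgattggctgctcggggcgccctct
Slc44a2, first start (chr9:21320469-21320718, plus strand): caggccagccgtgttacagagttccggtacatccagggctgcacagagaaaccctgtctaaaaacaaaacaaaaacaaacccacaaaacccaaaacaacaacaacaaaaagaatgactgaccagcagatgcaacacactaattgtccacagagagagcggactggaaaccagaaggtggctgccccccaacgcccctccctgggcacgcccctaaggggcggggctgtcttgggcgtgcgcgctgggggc
Slc44a2, second start (chr9:21337578-21337827, plus strand): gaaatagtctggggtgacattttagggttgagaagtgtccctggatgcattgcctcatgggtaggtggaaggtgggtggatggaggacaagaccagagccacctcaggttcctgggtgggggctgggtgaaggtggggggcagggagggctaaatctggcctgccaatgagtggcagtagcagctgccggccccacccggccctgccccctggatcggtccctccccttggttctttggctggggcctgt

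The Slc7a11 window held the ATF4 motif at 66 and 47 bases before the start, once on each strand. It was the only member with this motif, which 0.791% of 32851 windows of the same length hold. Slc41a2 held the NRF2 motif at 108 bases before the start, a motif of 13 of the 71 member windows (18.3%, in 12 members) and of 10.2% of all windows. Slc4a8 held the E-box at 227 bases before the start, a motif of 16 member windows (22.5%, in 13 members, Slc22a23 among them) and of 17.2% of all windows. The TFEB motif stood in 1 member, Slc20a1, and in 1.85% of windows, and the PU.1 motif in 0 members and 2.44% of windows. Neither Slc44a2 window held any of the 5 motifs, which says only that these letters are not in these windows.

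Slc16a6 (chromosome 11, 109450855 to 109473598) belongs to the family of carriers of lactate, pyruvate and ketone bodies. It had 31.9 and 27.8 CPM in PBS pDCs, from 5 and 12 counts. In YG+ pDCs it had 39.3 and 28.6 CPM, against 135 and 110 CPM in Sirpa+ DCs. The pDC libraries all lay below the Sirpa+ DC libraries. The log2 fold change was -2.04 ± 0.49 (adjusted p = 0.0218, edgeR), and it missed the threshold without PBS pDC replicate 2 (adjusted p = 0.0535) or Sirpa+ DC replicate 1 or 2 (adjusted p = 0.110 and 0.0914), with only the 4 libraries compared (0.0531) and by DESeq2 (0.0710). Exons of the opposite strand lie over 22.5% of its exon length. Amz2, the gene with more counts there, had 34 counts over the 6 libraries, while Slc16a6 had 148. Because the strand setting is not given, these counts cannot show from which gene the reads came, and this was not tested. The other members of its class were Slc16a4, with 191 and 53.2 CPM in PBS pDCs and 93.1 and 35.9 CPM in Sirpa+ DCs, and Slc10a1; neither passed.

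Slc22a23 (chromosome 13, 34179158 to 34345182) had 25.5 and 13.9 CPM in PBS pDCs, from 4 and 6 counts. It had 43.5 and 55.5 CPM in YG+ pDCs against 106 and 65.8 CPM in Sirpa+ DCs. Its order was PBS pDCs, YG+ pDCs and Sirpa+ DCs, with no overlap of the groups. The fold of PBS pDCs over Sirpa+ DCs was -2.22 ± 0.59 on the log2 scale (adjusted p = 0.0332, edgeR), and it missed the threshold without YG+ pDC replicate 2, PBS pDC replicate 2 or either Sirpa+ DC library (adjusted p = 0.0507 to 0.167), with only the 4 libraries compared (0.0815) and by DESeq2 (0.102). The other member of its class, the fatty acid carrier Slc27a1, had 82.9 and 90.2 CPM in PBS pDCs and 4.23 and 37.9 CPM in Sirpa+ DCs (adjusted p = 0.0957, edgeR). The Sirpa+ DC values of Slc27a1 rest on 1 and 19 counts.

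Among the mitochondrial carriers, Slc25a12, a carrier of aspartate and glutamate, had a log2 fold change of 1.24, the phosphate carrier Slc25a3 had 0.21 and the oxoglutarate carrier Slc25a11 -0.71, and none of these passed. None of the 6 sugar carriers was called. The sugar phosphate carrier gene Slc37a2 came nearest, with 82.9 and 127 CPM in PBS pDCs and 25.4 and 43.9 CPM in Sirpa+ DCs (log2 fold change 1.57 ± 0.49, adjusted p = 0.0624, edgeR), and the glucose carrier gene Slc2a3 had 63.8 and 90.2 against 50.8 and 37.9 CPM. Among the 3 nucleoside and nucleobase carriers, Slc43a3 had 57.4 and 64.8 CPM in PBS pDCs and 12.7 and 25.9 CPM in Sirpa+ DCs, and Slc29a1 44.6 and 46.3 against 93.1 and 69.8 CPM; neither passed (adjusted p = 0.116 and 0.358, edgeR). The Golgi carrier Slc35a4 and the vesicular monoamine carrier Slc18a2, each alone in its class, had log2 fold changes of 0.85 and 1.17 and did not pass.

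**Figure D4:**
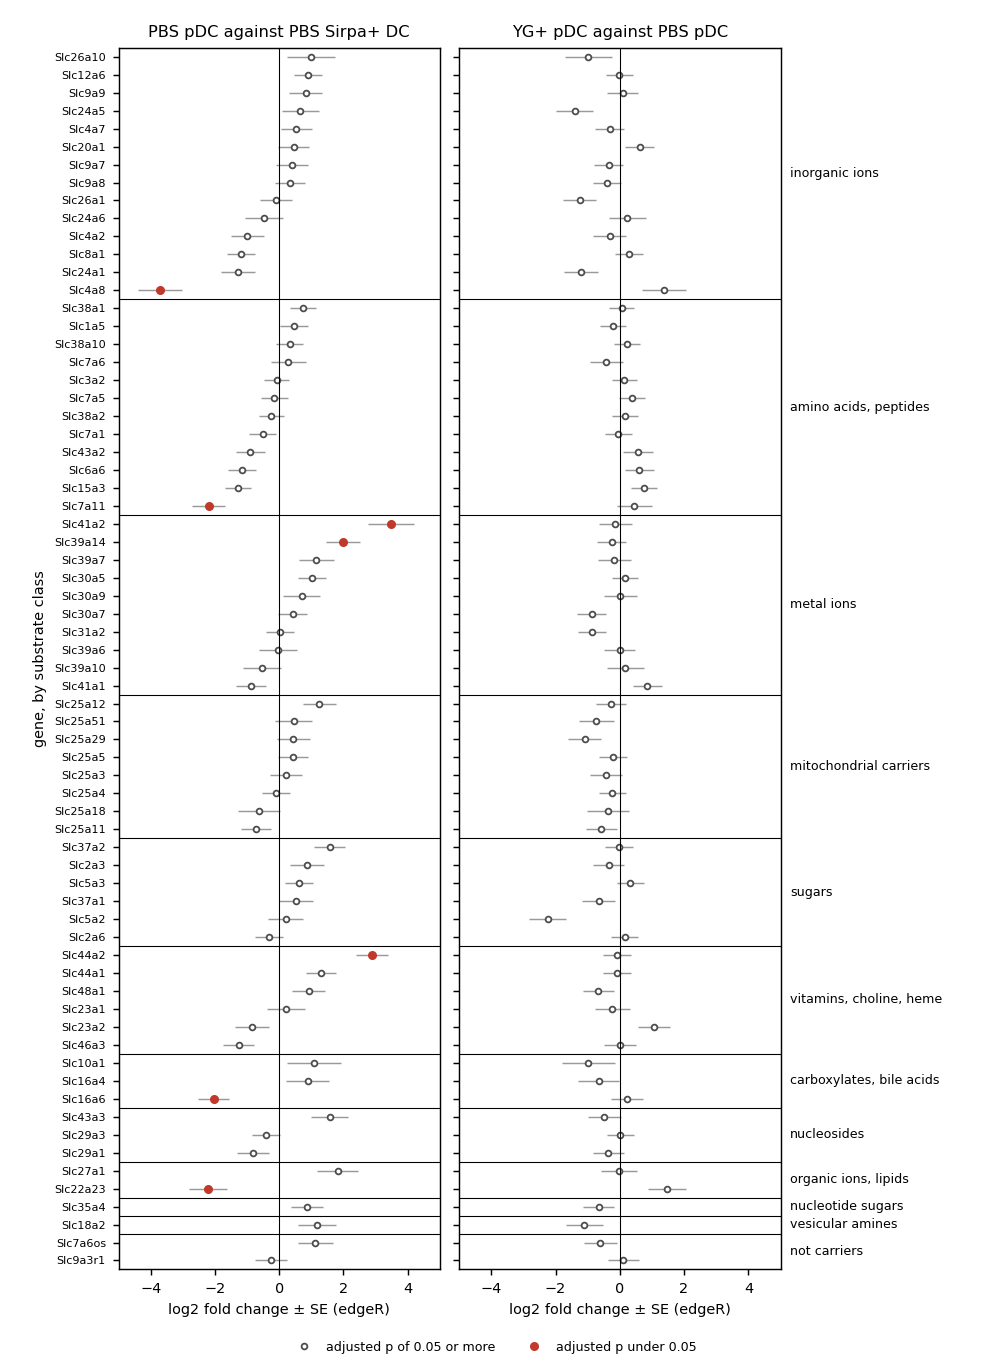
log2 fold change ± SE of each member (edgeR), by substrate class, for PBS pDCs against Sirpa+ DCs (left) and YG+ pDCs against PBS pDCs (right); filled points have an adjusted p under 0.05. Of the 70 members, 68 are drawn. The 7 filled points are all in the left panel, 3 above 0 and 4 below, and the panels share the PBS pDC libraries.

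The pDCs that carried microspheres were then compared with PBS pDCs. None of the 70 members differed at an adjusted p under 0.05 (0% of all genes tested, edgeR), and DESeq2 and limma-voom also called 0 members. At an unadjusted p under 0.05 there were 5 members, 7.14% of them, against 11.4% of all genes tested. Both YG+ pDC libraries lay above both PBS pDC libraries in 12 members and below in 21, against 26.5% and 19.3% of all genes tested. The median log2 fold change was -0.16 beside 0.08 over all genes. Without PBS pDC replicate 2, which leaves replicate 1 as the only PBS pDC library, 2 members were called higher and 6 lower. Slc5a2, Slc24a5, Slc24a1 and Slc26a1 were among the 6 lower, and Slc4a8 and Slc23a2 were the 2 higher. Without PBS pDC replicate 1 no member was called.

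The smallest p belonged to Slc5a2 (chromosome 7, 128265657 to 128272430), the sodium-glucose carrier of the kidney. It had 121 and 50.9 CPM in PBS pDCs, 14.0 and 19.7 CPM in YG+ pDCs and 80.4 and 61.8 CPM in Sirpa+ DCs, from 10 to 31 counts per library. YG+ pDCs were lowest, and the log2 fold change against PBS pDCs was -2.25 ± 0.58 (adjusted p = 0.316, edgeR). Next in order of p came Slc22a23 (1.46), Slc26a1 (-1.25), Slc24a5 (-1.40) and Slc24a1 (-1.21), as log2 fold changes with adjusted p of 0.384 to 0.418 (edgeR). Slc24a5 had 171 and 227 CPM in YG+ pDCs against 823 and 250 CPM in PBS pDCs, so that the difference lay in PBS pDC replicate 1. With a covariate for how many placed reads fell in genes, the log2 fold changes of Slc24a5 and Slc24a1 turned to 0.31 and 0.07. Slc26a1 had 64.6 and 50.1 CPM in YG+ pDCs against 191 and 94.9 CPM in PBS pDCs.

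Further down the order of p was the carrier of basic amino acids Slc25a29, at 29.5 and 25.1 CPM in YG+ pDCs against 70.2 and 50.9 CPM in PBS pDCs. So was the vitamin C carrier Slc23a2, at 110 and 94.8 CPM in YG+ pDCs against 19.1 and 67.1 CPM in PBS pDCs. The PBS pDC values of Slc23a2 rest on 3 and 29 counts. The copper carrier Slc31a2 had close replicates, 40.7 and 46.5 CPM in YG+ pDCs against 76.5 and 81.0 CPM in PBS pDCs, with 76.2 and 79.7 CPM in Sirpa+ DCs. Its log2 fold change was -0.86 ± 0.43 (adjusted p = 0.475, edgeR). Slc4a8 had a log2 fold change of 1.37 ± 0.70 and Slc30a7, a zinc carrier of the Golgi, -0.88 ± 0.45 (adjusted p = 0.483 and 0.490, edgeR). By class, all 9 mitochondrial carriers had fold changes below 0, the lowest -1.09 for Slc25a29, and none was called. In 3 of them both YG+ pDC libraries lay below both PBS pDC libraries, against 19.3% of all genes tested. Among amino acid carriers 9 of 12 had fold changes above 0, up to 0.75 for Slc15a3, and none was called. In 6 of these 12 the YG+ pDC libraries lay above, against 26.5% of all genes tested. The medians of the 2 classes were -0.37 and 0.19, beside 0.08 over all genes. The share of all genes with either sign was not counted. The phosphate carrier Slc20a1 had 145 and 131 CPM in YG+ pDCs against 57.4 and 113 CPM in PBS pDCs (adjusted p = 0.641, edgeR).

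YG+ pDCs were last set against the Sirpa+ DCs, a comparison that shares groups with both others. Slc44a2 (2.82 ± 0.49, adjusted p = 0.00714, edgeR) and Slc41a2 (3.33 ± 0.70, adjusted p = 0.0168) were higher in YG+ pDCs on the log2 scale. Slc24a1 (-2.50 ± 0.54, adjusted p = 0.0194, edgeR), Slc16a6 (-1.82 ± 0.44, adjusted p = 0.0285), Slc4a8 (-2.34 ± 0.57, adjusted p = 0.0303) and Slc7a11 (-1.75 ± 0.46, adjusted p = 0.0436) were lower. These 6 were 8.57% of the members, against 7.16% of all genes tested (3.07% higher and 4.09% lower), and 22 members lay wholly above and 24 wholly below, against 32.8% and 29.1%. Slc24a1 (chromosome 9, 64922861 to 64951607) was called here only; its nearest coding neighbour on the opposite strand, Dennd4a, lies 3194 bases away and had 980 and 884 CPM in YG+ pDCs against 487 and 700 CPM in Sirpa+ DCs. Slc39a14 had a log2 fold change of 1.74 (adjusted p = 0.0647, edgeR). The Slc7a11 call was lost in 8 of 16 alternative fits, among them the replicate block (adjusted p = 0.0534), no scaling factors (0.0555), DESeq2 (0.130) and the covariate for reads in genes (-1.40, 0.213). Slc16a6 was lost in 6, DESeq2 (0.0788) and the covariate (0.0880) among them, and Slc24a1 stood at -1.51 with the covariate (adjusted p = 0.0234). Without either Sirpa+ DC library 0 members were called. Without YG+ pDC replicate 1 the calls were 2 higher and 0 lower, and without replicate 2 they were 1 and 0, since Slc41a2 was lost too (adjusted p = 0.0772, edgeR). With either PBS pDC library left out, calls were 8 higher, with 9 lower without replicate 1 and 8 without replicate 2.

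Genes that work beside these carriers were described from lists, here for PBS pDCs against Sirpa+ DCs unless stated. In that comparison 4.54% of all genes tested were called higher and 6.89% lower, and the lists are small, so that single calls weigh heavily in their shares. The calls of listed genes were not followed through the alternative fits. Of 9 cystine and glutathione genes tested, 2 were lower in pDCs and none higher, with a median log2 fold change of -1.16 beside 0.08 over all genes. They were Txnrd1, a thioredoxin reductase, at 12.8 and 53.2 CPM in PBS pDCs against 237 and 195 CPM (-2.49 ± 0.57, adjusted p = 0.0187, edgeR), and Nfe2l2, which encodes the factor NRF2, at 44.6 and 97.2 against 245 and 307 CPM (-1.88 ± 0.48, adjusted p = 0.0294). Among 20 genes of amino acid sensing by mTORC1, Lamtor3 and Fnip2 were lower (-2.34 and -1.69) and none higher, a share near that of all genes, with a median of -0.27. None of 11 amino acid stress response genes, none of 9 iron and heme genes and neither of the 2 chaperone genes of monocarboxylate carriers tested was called in this comparison, with medians of -0.04, -0.22 and 0.25.

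Of 4 sodium pump subunit genes tested, Atp1b1 was higher in pDCs, at 262 and 460 CPM in PBS pDCs and 0 and 5.98 CPM in Sirpa+ DCs (adjusted p = 7.90e-04, edgeR). The pump sets the sodium gradient that many carriers draw on. Among 31 carrier genes with other symbols 1 was higher and 2 were lower, together a share below the 11.4% of all genes tested. The organic anion carrier gene Slco4a1 had 230 and 305 CPM in PBS pDCs and 0 and 5.98 CPM in Sirpa+ DCs (adjusted p = 8.11e-04, edgeR). Its relative Slco5a1 was at 0 in both PBS pDC libraries, at 29.5 and 28.6 CPM in YG+ pDCs and at 186 and 171 CPM in Sirpa+ DCs. Mfsd7b, an older symbol for a heme exporter of the plasma membrane, had 31.9 and 55.5 CPM in PBS pDCs against 186 and 134 CPM (-1.76 ± 0.48, adjusted p = 0.0380, edgeR). Of 6 zinc and copper genes the metallothionein gene Mt1 was lower, at 0 and 2.31 CPM against 33.9 and 47.8 CPM. The PBS pDC values of Mt1 lie below the level that a count of 0 allows there. Of 11 genes of nucleotide sugar use Gne, which starts sialic acid synthesis, was higher (1.68) and Uap1 lower (-1.79). No gene of any of these lists was called between YG+ pDCs and PBS pDCs.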

How the data were processed

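Total RNA of sorted thymic DCs was sequenced in 6 libraries. The authors deposited 1 file of raw, whole-number counts by gene symbol for each library. Per the submitters' processing notes, bcl2fastq 2.17 and mm10 were used. The sources used here give no aligner, counter, annotation or strand setting. The closing lines of each file, which name no gene, held 97.7% to 99.5% of all records and were kept out of library sizes and tests.

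The members and all gene lists were chosen with earlier results of these data known. Members were matched to GENCODE M21 (GRCm38; 70 of 70, 1 of them through a synonym) for coordinates and exon lengths, and promoter windows came from RefSeq. Genes passing edgeR's filterByExpr, all 70 members among them, were scaled by TMM (factors 0.924 to 1.09). The quasi-likelihood test of edgeR 4.0.16 in R 4.3.3 was run in 1 fit of the 3 group means over 6 libraries, with 3 residual degrees of freedom and no block, and p-values were adjusted by Benjamini-Hochberg over 8141 genes. The biological coefficient of variation was 33.0%. CPM values use the same scaling. The script was tested on simulated data. Named genes are, per comparison, the called members, the top 10 per kilobase, the members of each class with most counts and, for YG+ against PBS pDCs, the 10 smallest p; members beyond these rankings, such as the lower-count ones named to complete a class or a carrier pair, and the examples of counts that did not follow library size, were picked after their values were seen. Alternatives were other scalings and filters, DESeq2 1.42.0, limma-voom (limma 3.58.1), a covariate, a replicate block, the 4 libraries compared alone, and each library left out in turn. Figures used matplotlib 3.10.9. Of the 70 members, 2 are not reported here by name; they stay in the fit and in the counts.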

Additional observations from a re-analysis of the deposited data

How the results depend on the processing

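With a covariate for how many placed reads fell in genes, members called higher and lower were 9 and 9 in PBS pDCs against Sirpa+ DCs and 6 and 3 in YG+ pDCs against Sirpa+ DCs, and in YG+ pDCs against PBS pDCs Slc24a5 and Slc24a1 reversed to 0.315 and 0.0711. In the same order of the comparisons with Sirpa+ DCs, only the 4 libraries compared gave 2 and 2, and 8 and 9; DESeq2 gave 2 and 1, and 2 and 2; and no filter on low counts gave 5 and 4, and 4 and 5. A minimum of 200 counts left 38 members, with 3 and 1 and with 1 and 2 calls, and a minimum of 50 left 114, with 4 and 6 and with 2 and 5. Leaving out 1 library at a time gave 1 to 7 higher and 1 to 6 lower for PBS pDCs against Sirpa+ DCs, 0 to 2 and 0 to 6 for YG+ pDCs against PBS pDCs, and 0 to 8 and 0 to 9 for YG+ pDCs against Sirpa+ DCs; a library left alone in its group is assumed to vary like the others. The causes of these shifts were not tested.

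Over all genes, calls between PBS pDCs and Sirpa+ DCs numbered 931, and 1588 with the covariate, 580 with 4 libraries and 214 to 1297 with 1 library left out. For YG+ pDCs against PBS pDCs there were 0, and 141 without a filter, 131 by DESeq2, 9 with the covariate and 0 to 870 with 1 library left out. For YG+ pDCs against Sirpa+ DCs there were 583, and 894 without a filter, 1480 with 4 libraries and 69 to 1487 with 1 library left out. Scaling without TMM factors and limma-voom left member counts within 1 of those reported. With the replicate block, member calls were 4 and 4, 0 and 0, and 2 and 4, the counts reported; against Sirpa+ DCs, YG+ pDCs lost the call of Slc7a11 (adjusted p = 0.0534) and gained that of Slc5a2 (-2.05, adjusted p = 0.0486, from 0.0520), and no other call of a member changed. With the block 942, 0 and 635 genes were called. Deviations from the group means of same-numbered libraries correlated at 0.30 between PBS pDCs and Sirpa+ DCs. They correlated at -0.12 between YG+ pDCs and PBS pDCs and at -0.10 between YG+ pDCs and Sirpa+ DCs. Only the PBS groups thus correlated positively, and the numbers were not used as pairs. At 0.842% to 3.36% of reads in genes, depth limits members near the minimum, such as Slc25a29 with 100 counts in 6 libraries.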

Other observations

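Summed over a substrate class, members that carry amino acids and peptides held 1697 and 2085 CPM in PBS pDCs, 2200 and 2192 CPM in YG+ pDCs and 2205 and 2219 CPM in Sirpa+ DCs. Metal ion carriers summed to 733 to 937 CPM in the pDC libraries and to 499 and 552 CPM in Sirpa+ DCs, and carriers of vitamins, choline and heme to 695 to 935 CPM against 449 and 391 CPM, with Slc44a2 the largest part in the pDC libraries. Inorganic ion carriers summed to 1542 to 1717 CPM in 3 pDC libraries, 3457 CPM in PBS pDC replicate 1, and 4608 and 3013 CPM in Sirpa+ DCs, with Slc24a1 the main part there. These sums were not divided by exon length, follow the genes with the highest CPM and were not tested.

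Just below the count minimum, Slc16a3, a lactate exporter with 97 counts, had 6.38 and 9.26 CPM in PBS pDCs, 30.9 and 41.2 CPM in YG+ pDCs and 76.2 and 57.8 CPM in Sirpa+ DCs. Its levels came in the same order of groups as those of Slc22a23, Slc4a8, Slc7a11, Slc15a3, Slc6a6 and Slc41a1, with no overlap between groups. The levels of Slc16a3 rest on 1 and 4 counts in the PBS pDC libraries. The share of all genes with this order was not counted. Among partner genes, Phgdh, which starts serine synthesis, had 32.3 and 37.6 CPM in YG+ pDCs and 0 and 3.99 CPM in Sirpa+ DCs (adjusted p = 0.0317, edgeR). These Sirpa+ DC values lie below the level that a count of 0 allows there. In PBS pDCs Phgdh had 25.5 and 23.1 CPM. It was the 1 call among 11 amino acid stress response genes in this comparison, where 3.07% of all genes tested were called higher. The copper chaperone gene Atox1 had 1.40 and 0 CPM in YG+ pDCs against 33.9 and 27.9 CPM in Sirpa+ DCs (adjusted p = 0.0286, edgeR). These YG+ pDC values lie below the level that a count of 0 allows there. In PBS pDCs Atox1 had 0 and 4.63 CPM. It was the 1 call among 6 zinc and copper genes there, where 4.09% of all genes tested were called lower.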
